A study of Homo sapiens with 4 samples.

Results

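The genes described here are 10 components of the circadian clock: the period genes PER1, PER2 and PER3, the cryptochromes CRY1 and CRY2, the activator CLOCK, the nuclear receptor genes NR1D1 and NR1D2, the output regulator DBP and the repressor BHLHE40. They share a function in the clock and were chosen with earlier results of these data known. Each had exactly 1 row carrying its symbol alone, so that 10 of the 18417 genes named in this way on the array were followed. Their RNA was measured in HepG2, an established line from a human hepatocellular carcinoma, on 1-colour Affymetrix arrays. Cultures received, by lipid transfection with Oligofectamine, either anti-miR-191, an antisense inhibitor of the microRNA miR-191, or anti-miR-NC, a negative control anti-miR. There were 2 arrays per group, and the treatment was done in 2 independent experiments, each giving 1 anti-miR-191 array and 1 control array. All cultures were grown in MEM-Eagle with 10% serum. The sources used here give neither the dose nor the hours between transfection and harvest, nor any step that synchronises the clock, and each culture was sampled once, so the phase of the clock was not measured.

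The clock is a feedback loop of transcription. CLOCK or its relative NPAS2 pairs with BMAL1, and the pair binds E-box sequences and activates the period, cryptochrome, NR1D, DBP and BHLHE40 genes. PER and CRY proteins then enter the nucleus and inhibit that pair, and BHLHE40 competes for the E-boxes. NR1D1 and NR1D2 encode REV-ERB alpha and REV-ERB beta, which repress BMAL1 and other genes at sites that the ROR receptors use for activation. DBP activates genes with D-boxes, and NFIL3 represses them. In liver the loop times genes of lipid, glucose and drug metabolism. Several period genes also respond within hours to serum, glucocorticoids and cyclic AMP, apart from the daily cycle.

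The sequences that frame the comparison are the microRNA that was inhibited and the promoter windows of the genes whose levels moved most. RefSeq lists both mature arms of miR-191 on chromosome 3 of GRCh38.p14, on the minus strand. They are shown so that the inhibited sequence can be seen, with the seed, bases 2 to 8, in capitals. The labels do not say which arm the inhibitor was made against, and 3' UTR sequences were not used here, so seed sites in the clock transcripts were not searched.
hsa-miR-191-5p: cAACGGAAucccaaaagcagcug
hsa-miR-191-3p: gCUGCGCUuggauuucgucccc

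Promoter windows of 300 bases, covering 250 bases before and 50 bases from the start of transcription, were taken from RefSeq (GRCh38.p14) for 10 of 10 clock genes. Shown are those of NR1D1 (minus strand, chr17:40100540-40100839), PER2 (minus strand, chr2:238288561-238288860), CRY1 (minus strand, chr12:107093500-107093799), BHLHE40 (plus strand, chr3:4979187-4979486) and PER1 (minus strand, chr17:8152355-8152654), whose genes were higher after anti-miR-191, and that of DBP (minus strand, chr19:48637330-48637629), whose level hardly differed. Each is read in the direction of its gene. Capitals mark E-boxes, E'-boxes and cyclic AMP core sites. For genes with more than 1 window, the first listed was used.
NR1D1: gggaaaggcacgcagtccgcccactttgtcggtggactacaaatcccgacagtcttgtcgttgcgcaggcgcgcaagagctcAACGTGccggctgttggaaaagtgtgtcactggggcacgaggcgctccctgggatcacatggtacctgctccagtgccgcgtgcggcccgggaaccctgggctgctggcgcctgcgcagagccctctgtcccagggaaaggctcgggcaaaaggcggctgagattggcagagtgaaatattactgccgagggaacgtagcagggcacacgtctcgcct
PER2: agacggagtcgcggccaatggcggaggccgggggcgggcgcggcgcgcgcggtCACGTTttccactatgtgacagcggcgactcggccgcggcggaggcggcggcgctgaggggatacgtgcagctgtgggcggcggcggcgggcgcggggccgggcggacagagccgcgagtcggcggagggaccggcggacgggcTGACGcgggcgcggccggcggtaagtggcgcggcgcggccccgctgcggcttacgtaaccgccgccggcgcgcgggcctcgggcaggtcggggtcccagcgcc
CRY1: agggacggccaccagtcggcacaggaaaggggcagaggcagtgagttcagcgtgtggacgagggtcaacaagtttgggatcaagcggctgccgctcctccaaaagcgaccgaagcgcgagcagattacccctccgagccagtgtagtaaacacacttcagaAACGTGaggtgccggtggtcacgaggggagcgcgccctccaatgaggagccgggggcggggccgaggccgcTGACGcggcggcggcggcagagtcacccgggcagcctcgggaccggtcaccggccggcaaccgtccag
BHLHE40: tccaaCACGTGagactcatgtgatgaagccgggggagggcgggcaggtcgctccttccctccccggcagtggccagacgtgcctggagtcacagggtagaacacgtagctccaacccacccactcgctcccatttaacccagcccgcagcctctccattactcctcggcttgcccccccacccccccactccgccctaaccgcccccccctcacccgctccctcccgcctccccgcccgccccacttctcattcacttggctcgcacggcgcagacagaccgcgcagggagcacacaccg
PER1: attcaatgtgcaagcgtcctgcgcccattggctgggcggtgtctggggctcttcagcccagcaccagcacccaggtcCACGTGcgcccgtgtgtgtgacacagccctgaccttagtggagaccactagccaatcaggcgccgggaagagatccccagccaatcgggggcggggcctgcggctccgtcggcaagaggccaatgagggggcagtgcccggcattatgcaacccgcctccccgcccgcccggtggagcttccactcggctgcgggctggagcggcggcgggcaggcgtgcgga
DBP: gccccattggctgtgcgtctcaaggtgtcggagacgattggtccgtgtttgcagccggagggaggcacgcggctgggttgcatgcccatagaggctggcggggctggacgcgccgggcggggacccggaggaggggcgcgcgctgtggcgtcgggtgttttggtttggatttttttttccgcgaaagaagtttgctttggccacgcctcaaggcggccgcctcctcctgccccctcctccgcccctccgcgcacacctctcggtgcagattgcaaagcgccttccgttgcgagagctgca

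Of 7 motifs searched on both strands, the E-box CACGTG occurred in the windows of PER1 (position -173 from the start) and BHLHE40 (position -245). It is present in 7.26% of all 35116 windows in the table. The E'-box CACGTT, a variant that clock activators also bind, occurred in the windows of PER2 (-197), CRY1 (-89) and NR1D1 (-168), against 5.34% of all windows. Either form was thus found in 5 of 10 clock genes and in 12.2% of all windows. The window of CRY2, which was also higher after anti-miR-191 and is not shown, held neither form. The core TGACG of the cyclic AMP response element was found in 5 of 10 (PER2, CRY1, CRY2, CLOCK and NR1D2) and in 24.6% of all windows. The full element TGACGTCA, which contains that core, and the AP-1 site TGANTCA were found in 0 of 10, against 1.85% and 7.71%. The D-box was searched only as TTATGTAA, which was found in PER3 alone (-177) among the 10, against 0.886% of all windows. Other spellings, such as the TTACGTAA in the PER2 window, were not counted. The ROR element core AGGTCA was found in PER1 (-144) and CRY2 (-62), against 13.8%. The DBP window held none of the 7 motifs, as did 52.2% of all windows. These are matches of letters in 1 short window per gene. They do not show binding, and enhancers and introns lie outside them.

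Arrays were compared as deposited, as RMA intensities on the log2 scale, with medians between 4.37 and 4.43. Their interquartile ranges were 3.38 and 3.43 after anti-miR-191 and 3.18 and 3.24 in controls. A change is the log2 level after anti-miR-191 less that of the control, averaged over both experiments and given ± SE. The SE is limma's, from the fit with the experiment as a block, and is moderated by the spread of all genes. The words rose and fell are used where limma's adjusted p, taken over all 14147 genes tested, was under 0.05 in the fit that keeps the experiment as a block. The fit without the block stands beside it. Of 8 liver markers, 7 had a row of their own; ALB read between 9.65 and 10.6 over the 4 arrays and AFP between 8.60 and 9.84, while FGB read between 4.72 and 5.59. Among these 7, TTR fell by 1.04 (adjusted p = 0.0057) and 6 did not pass. The log2 values of the 7 summed to 66.9 and 63.7 after anti-miR-191 in experiments 1 and 2, and to 67.6 and 69.6 in controls. Such a sum of logarithms is not a total amount of RNA. Single changes ran from -1.01 (TTR) to 0.48 (ALB) in experiment 1. In experiment 2 they ran from -1.24 (AFP) to -0.093 (SERPINA1). The log2 values in rows of 10 markers of blood, endothelial, muscle, skin, glial and connective cells were summed likewise. They came to 39.3 and 39.2 after anti-miR-191 and to 39.7 and 39.7 in controls. The 8 of these markers that were tested had a limma adjusted p of 0.354 or more. Those 10 rows read between 2.44 and 5.42 after anti-miR-191 and between 2.57 and 5.49 in controls, so a clock gene inside that range is not shown to be above background. The part of these markers in the results was not tested.

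Most of the clock genes were higher after anti-miR-191. Because the 10 were chosen with earlier results of these data known, the counts describe them and are not a test of the set. Of the 10, 6 rose (NR1D1, PER2, CRY1, BHLHE40, PER1 and CRY2), against 10.1% of all genes tested, and 0 fell, against 3.77% of all genes. At an unadjusted p under 0.05, limma counted 7 higher and 0 lower in either fit, against 19.1% and 8.98% of all genes with the block and 15.3% and 6.28% without it. Without the block, 2 of the 10 were higher (NR1D1 and PER2), against 3.20% of all genes, and 0 were lower, against 0.714%. Both anti-miR-191 arrays lay above both controls for 9 of the 10, an order seen in 29.4% of all genes, and below both controls for 0 of the 10, against 23.8%. The exception was DBP. Among the 9, PER3, CLOCK and NR1D2 lay within the range of the other cell types' markers on all 4 arrays. The mean of the CLOCK controls (3.40) was below 3.41, the limit under which rows were left out as dim. CLOCK was thus tested only through its anti-miR-191 arrays, and its place in the count is tied to that filter. The median change of the 10 was 0.60, with 0.42 in experiment 1 and 0.84 in experiment 2, while the median over all genes was 0.012. In RNA from whole cultures, more cells with a transcript and more of it per cell cannot be told apart.

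**Figure D1:**
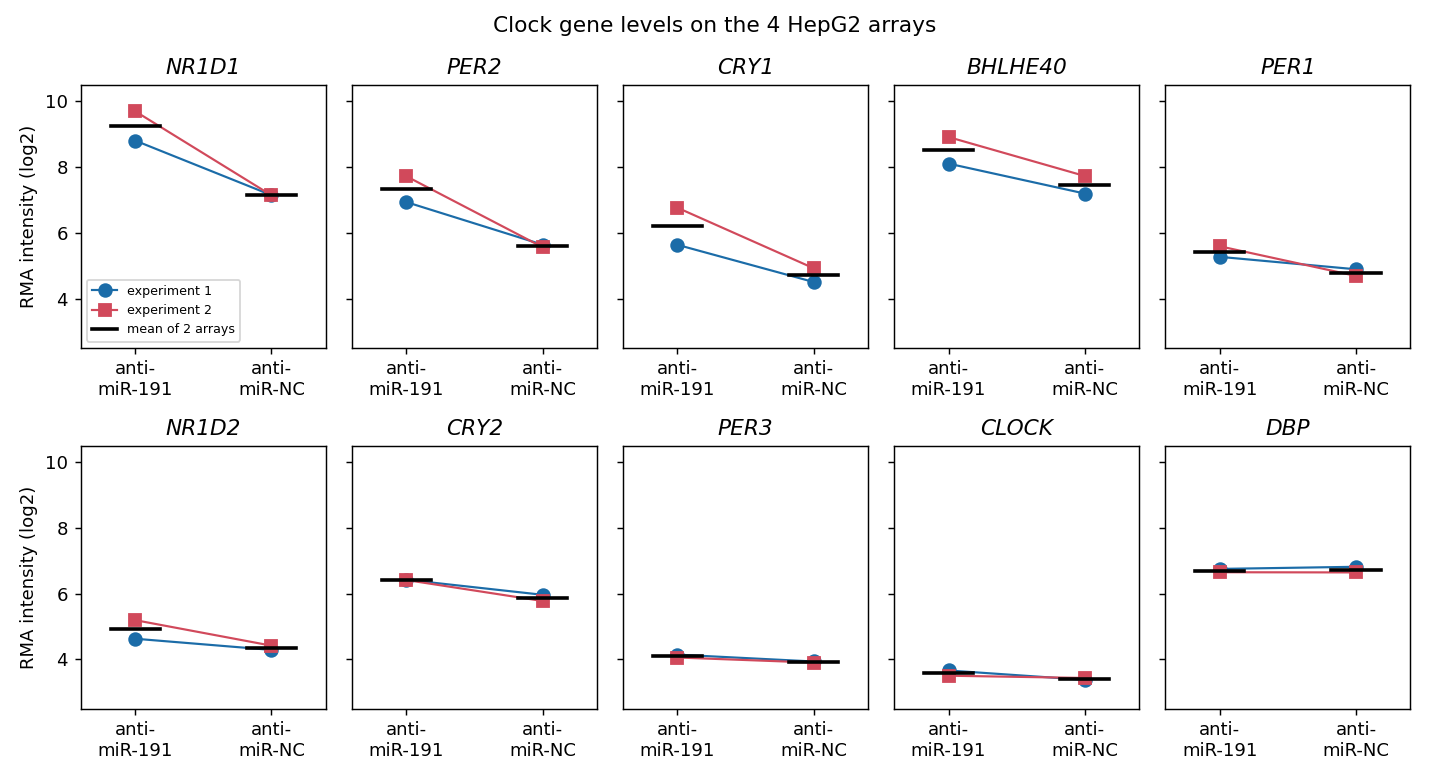
RMA intensity (log2, vertical axis) of each clock gene on the 4 arrays, anti-miR-191 on the left and the negative control anti-miR-NC on the right of each panel. Circles are experiment 1, squares experiment 2, lines join the arrays of 1 experiment and black bars are means of 2 arrays. NR1D1, PER2, CRY1 and BHLHE40 slope most steeply, with both experiments higher after anti-miR-191, and the DBP lines are nearly flat.

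The REV-ERB gene NR1D1 had the largest change of the 10. It read 8.81 and 9.70 after anti-miR-191 in experiments 1 and 2, against 7.15 and 7.14 in the controls. The control arrays were nearly equal, the anti-miR-191 arrays lay well above both, and the array of experiment 2 was the higher of that pair. NR1D1 rose 4.31-fold (2.11 ± 0.22; changes of 1.66 and 2.56), with limma's adjusted p = 0.0024 with the block and 0.027 without it. Its change ranked 43 of 14147 from the top. NR1D1 spans chr17:40092793-40100589 and overlaps the span of THRA, the thyroid hormone receptor alpha gene, which runs the other way. The THRA row, looked up because of this overlap, gave -0.082 and -0.087 in experiments 1 and 2 (adjusted p = 0.755), and did not pass.

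NR1D2, which encodes the second REV-ERB receptor, read 4.63 and 5.19 after anti-miR-191 and 4.29 and 4.42 in controls. The groups did not overlap, although the anti-miR-191 array of experiment 1 stood only 0.34 above its own control. Its change of 0.56 ± 0.16 did not pass (adjusted p = 0.064 with the block and 0.206 without it), with an unadjusted 95% interval of 0.18 to 0.94. All 4 values lay within the range of the other cell types' markers. RORA, a receptor that activates through the same sites and was named after its values were seen, was dim on every array (3.75 and 3.45 after anti-miR-191, 3.31 and 3.31 in controls) and did not pass (adjusted p = 0.278).

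The 3 period genes had changes of different sizes, and the differences between them were not tested. PER2, a core inhibitor of the CLOCK and BMAL1 pair, read 6.94 and 7.72 after anti-miR-191, against 5.64 and 5.56 in controls. Controls were close together and both anti-miR-191 arrays were higher, again with the larger value in experiment 2. The PER2 controls lay only just above 5.49, the highest control value of the other cell types' markers, so its fold rests on dim controls. PER2 rose 3.31-fold (1.73 ± 0.21; adjusted p = 0.0042 with the block and 0.031 without it), and its change ranked 79 of 14147.

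PER1, the period gene best known for a rapid response to hormones and cyclic AMP, read 5.27 and 5.59 after anti-miR-191 and 4.89 and 4.69 in controls. The groups did not overlap, but the step in experiment 1 (0.38) was the smaller of both (0.90 in experiment 2). PER1 rose by 0.64 ± 0.17 on the log2 scale, with an adjusted p of 0.0477 that lay just inside the threshold. That p was 0.103 without the block, and between 0.061 and 0.094 after median centring, cyclic loess or quantile normalization. Its controls lay within the range of the other cell types' markers, so no fold is given.

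PER3, which has a lesser role in the core loop, read 4.14 and 4.05 after anti-miR-191 and 3.93 and 3.90 in controls. The groups did not overlap, yet the step was small in both experiments and the row was dim throughout. The change of 0.18 ± 0.14 did not pass (adjusted p = 0.475), with a 95% interval of -0.15 to 0.52.

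Both cryptochromes, the partners of the period proteins, were higher. CRY1 read 5.63 and 6.76 after anti-miR-191, against 4.50 and 4.92 in controls. The arrays of experiment 2 were the higher in each group, so that the spread within groups was wide while both experiments moved the same way. CRY1 rose by 1.49 ± 0.19 (changes of 1.13 and 1.84) with adjusted p = 0.0049. Without the block, where the difference between experiments counts as noise, the adjusted p was 0.081. The CRY1 controls lay within the range of the other cell types' markers and its anti-miR-191 values above it, so no fold is given.

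CRY2 read 6.42 and 6.41 after anti-miR-191 and 5.96 and 5.77 in controls. The anti-miR-191 arrays were almost equal and both were above the controls. CRY2 rose 1.46-fold (0.55 ± 0.15; adjusted p = 0.0474), again just inside the threshold. The adjusted p was 0.102 without the block, and between 0.058 and 0.115 after median centring, cyclic loess or quantile normalization.

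BHLHE40, a repressor that acts at E-boxes and is also induced by hypoxia and growth signals, read 8.11 and 8.91 after anti-miR-191 and 7.19 and 7.73 in controls. Experiment 2 was higher than experiment 1 in both groups, and the 2 steps were alike (0.91 and 1.19). BHLHE40 rose 2.07-fold (1.05 ± 0.15; adjusted p = 0.0064), but not without the block (adjusted p = 0.120). Its paralogue BHLHE41, named after its values were seen, read 5.03 and 4.83 after anti-miR-191 and 4.95 and 4.78 in controls. All of these BHLHE41 values lay within the range of the other cell types' markers. The BHLHE41 change was 0.063 ± 0.14 (adjusted p = 0.824).

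CLOCK, the activator of the loop, read 3.66 and 3.50 after anti-miR-191 and 3.38 and 3.43 in controls. These values lie at the limit of 3.41 below which rows were left out as dim, and inside the range of the other cell types' markers. The change of 0.18 ± 0.15 did not pass (adjusted p = 0.502). Its partner BMAL1 was as dim, at 3.86 and 3.34 after anti-miR-191 and 3.50 and 3.36 in controls, with overlapping groups and a change of 0.17 ± 0.16 (adjusted p = 0.552). BMAL2, at 4.22 and 3.88 after anti-miR-191 and 3.94 and 3.93 in controls, also lay inside the marker range. Its change was 0.12 ± 0.16 (adjusted p = 0.685). NPAS2, which can replace CLOCK, was well above the marker range at 8.31 and 8.40 after anti-miR-191 and 8.05 and 8.08 in controls. It was higher in both experiments by a similar step, and its change of 0.29 ± 0.14 did not pass (adjusted p = 0.244).

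DBP, a direct target of the CLOCK and BMAL1 pair and itself an activator at D-boxes, hardly differed between the groups. It read 6.75 and 6.65 after anti-miR-191 and 6.82 and 6.64 in controls. The groups overlapped, and the steps of -0.064 and 0.0056 in experiments 1 and 2 had opposite signs. The change was -0.029 ± 0.14 (adjusted p = 0.923), with a 95% interval of -0.36 to 0.31. The sign of this small change turned when the treated array of experiment 2 (0.021) or the control of experiment 1 (0.056) was left out. The difference between the change of DBP and those of NR1D1 or PER2 was not tested. Its relatives TEF and HLF, named after their values were seen, did not pass either, with changes of 0.010 ± 0.14 and -0.17 ± 0.21. HLF had opposite steps of 0.25 and -0.58 in experiments 1 and 2, and the sign for TEF turned under quantile normalization (-0.063) and cyclic loess (-0.022).

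**Figure D2:**
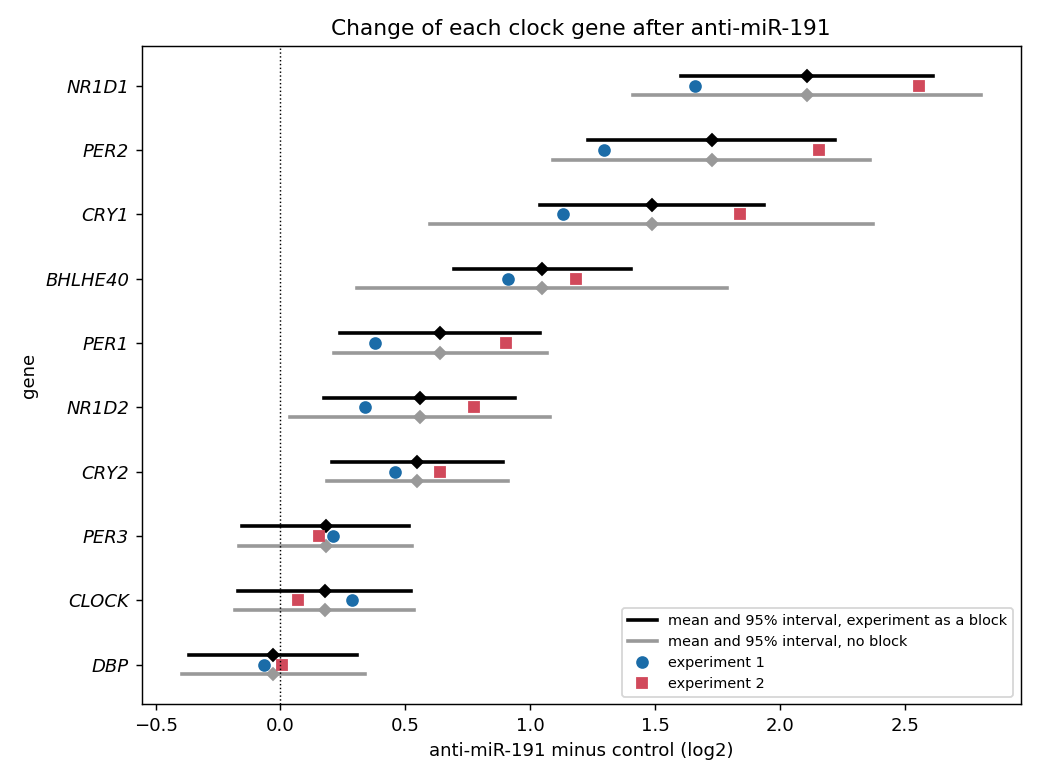
Change of each clock gene (anti-miR-191 minus anti-miR-NC, log2, horizontal axis), ordered by the mean of both experiments. Circles and squares are experiments 1 and 2, diamonds the mean, and bars unadjusted 95% intervals with the experiment as a block (black) or without it (grey). The bars of PER3, CLOCK and DBP cross 0 in both fits and those of the other 7 genes do not, and the grey bars of CRY1 and BHLHE40 are clearly wider than their black ones.

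The step was larger in experiment 2 than in experiment 1 for 7 of the 10 genes, or 70%, against 53% of all genes tested. The exceptions were PER3, CLOCK and DBP. Across all genes the changes had an SD of 0.430 in experiment 1 and 0.497 in experiment 2. With 1 array left out and no block, the changes kept their sign for 9 of the 10, the exception being DBP. NR1D1 then lay between 1.66 and 2.56, PER2 between 1.33 and 2.12, CRY1 between 0.92 and 2.05 and BHLHE40 between 0.64 and 1.45.

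**Figure D3:**
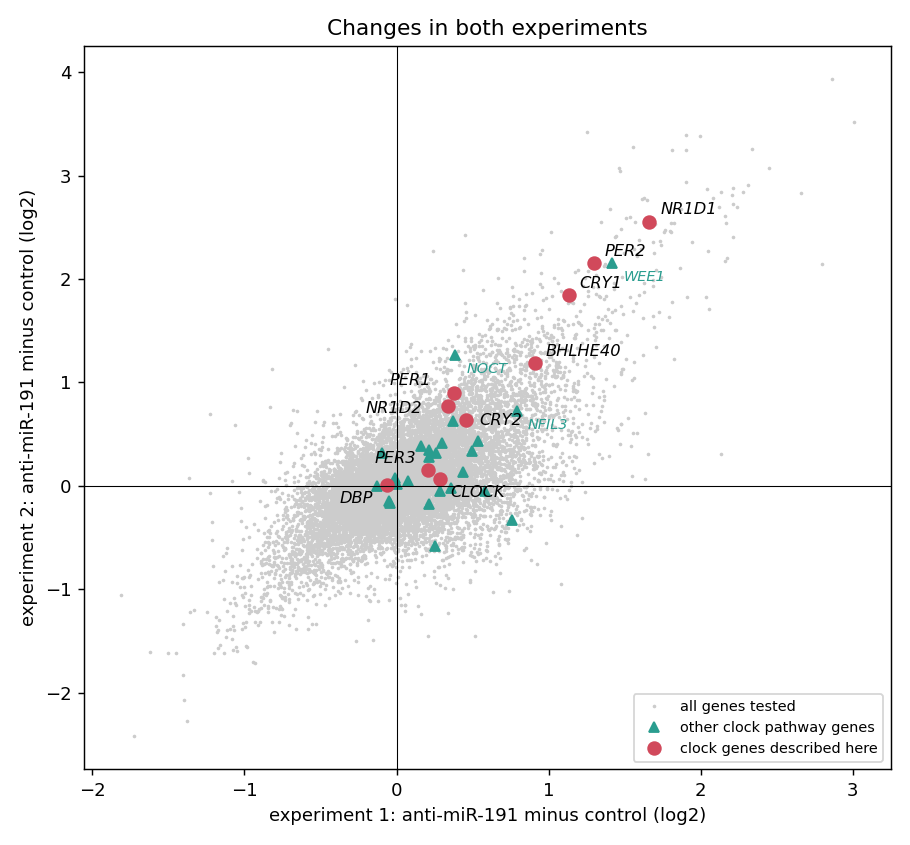
Change in experiment 1 (horizontal axis) against change in experiment 2 (vertical axis), both as anti-miR-191 minus anti-miR-NC (log2). Grey dots are the 14147 genes tested, red circles the 10 clock genes and green triangles 25 other clock pathway genes, with the 3 that rose named. NR1D1, PER2, CRY1 and BHLHE40 lie in the upper right, and DBP lies at the centre.

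A further 32 genes of the clock pathway were listed as context. Of these activators, modulators, receptors, kinases, ubiquitin ligases, inputs and outputs, 27 had a row of their own and 25 were tested. Of these 25, 3 rose and 0 fell with the block, beside 10.1% and 3.77% of all genes, so the share that rose was near that of all genes. At an unadjusted p under 0.05, 7 were higher and 0 lower with the block, beside 19.1% and 8.98% of all genes. Without the block 2 were higher and 0 lower, beside 3.20% and 0.714% of all genes. The median change of the 25 was 0.24, beside 0.012 over all genes. Both anti-miR-191 arrays lay above both controls for 12 and below them for 2 of the 25, beside 29.4% and 23.8% of all genes. Among the 12 was RORA, whose controls (3.31 and 3.31) lay below the dim limit of 3.41. RORA was tested only through its anti-miR-191 arrays, so its place in that count is tied to the filter.

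The 3 genes that rose were WEE1, NOCT and NFIL3. WEE1, the kinase that holds back entry into mitosis and a clock output in mouse liver, read 6.57 and 7.50 after anti-miR-191 and 5.15 and 5.35 in controls. It rose by 1.79 ± 0.20 on the log2 scale (adjusted p = 0.0030 with the block and 0.037 without it). Its controls lay within the range of the other cell types' markers, and 2 further WEE1 rows were too dim to be tested, with changes of -0.083 and -0.79 in one and of 0.39 and -0.015 in the other. NFIL3, the repressor at D-boxes that opposes DBP, read 6.44 and 6.47 after anti-miR-191 and 5.64 and 5.74 in controls. These NFIL3 controls lay only just above the marker range. The steps of 0.79 and 0.72 were alike, and NFIL3 rose 1.69-fold (0.76 ± 0.14; adjusted p = 0.015 with the block and 0.047 without it). NOCT, which encodes the phosphatase nocturnin, read 6.70 and 7.36 after anti-miR-191 and 6.32 and 6.10 in controls. It rose 1.77-fold (0.82 ± 0.21; adjusted p = 0.042), but the adjusted p was 0.120 without the block and between 0.059 and 0.110 after median centring, cyclic loess or quantile normalization.

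Regulators of PER and CRY protein stability did not pass, with 1 alternative setting excepted. CSNK1D, a kinase that marks period proteins for decay, had a change of 0.50 ± 0.15 (adjusted p = 0.069, and 0.047 when limma's prior variance followed the level), and GSK3B, another kinase of clock proteins, a change of 0.48 ± 0.14 (adjusted p = 0.068). FBXW11, a ubiquitin ligase subunit that acts on period proteins, had a change of 0.42 ± 0.15 (adjusted p = 0.106). ALAS1, the first enzyme of haem synthesis, which supplies the ligand of the REV-ERB receptors, had a change of 0.36 ± 0.15 (adjusted p = 0.155). These 4 genes were named for the size of their changes. For each of them both anti-miR-191 arrays were above both controls, an order seen in 29.4% of all genes.

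**Figure D4:**
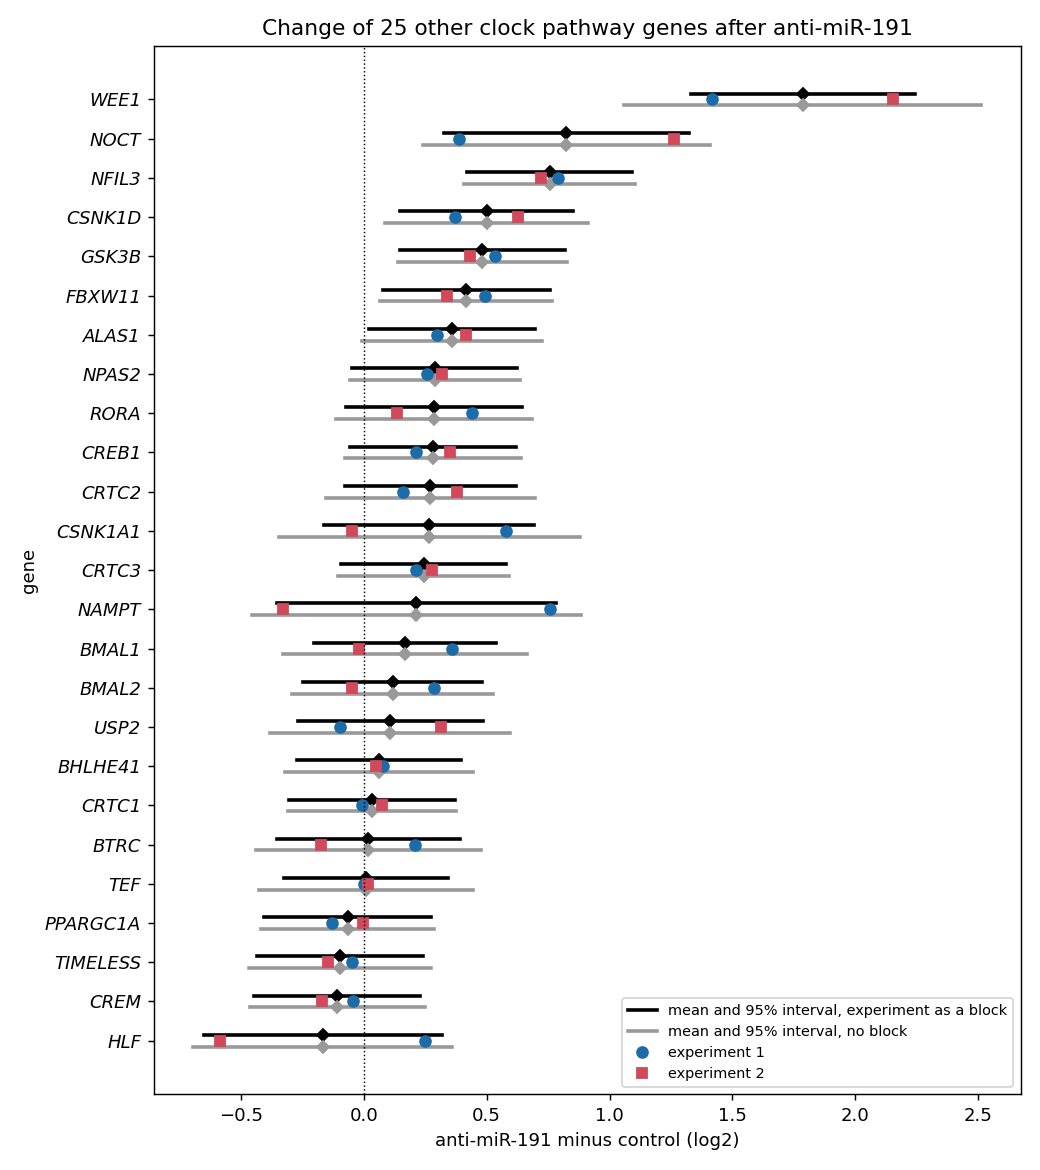
Change of the 25 other clock pathway genes tested (anti-miR-191 minus control, log2, horizontal axis), with the same symbols and bars as the plot of the 10 clock genes. WEE1 stands apart at 1.79, followed by NOCT at 0.82 and NFIL3 at 0.76, and the activators BMAL1, BMAL2 and NPAS2 lie between 0.12 and 0.29.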

How the data were processed

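RNA from 4 HepG2 cultures was measured on Affymetrix arrays. The values were deposited as log2 intensity from RMA, run by the authors in Affymetrix Expression Console according to the submitters' processing notes. This step removes background, scales the arrays to each other and combines the probes of a transcript cluster. The sources used here give no version and do not say which arrays were normalized together, and the log base was inferred from RMA's usual output. RMA intensity has no counting depth, so the number of arrays limits precision.

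Of 33297 rows, GEO's platform annotation gave 1 symbol for 19460, several for 1754 and none for 12083. The third of rows with the lowest mean (33.3%, below 3.41) was left out and the brightest row kept per gene, leaving 14147 genes. limma 3.58.1 (lmFit, eBayes, R 4.3.3) was fitted two-sided with Benjamini-Hochberg adjustment over those genes and a threshold of 0.05, with the experiment as a block (1 residual and 6.60 prior degrees of freedom) and without it (2 and 4.32). The replicate numbers pair the arrays because the series text places the duplicates in independent studies; across genes, the deviations of arrays sharing a number correlated at 0.335. No label says that the cultures were biologically separate beyond the experiment. Each SE and p-value combines a gene's own spread, over 2 arrays in each group or 2 changes, with limma's prior spread from all genes. The prior holds more degrees of freedom in both fits, so an SE can differ widely from that of a gene's 2 changes alone.

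The 10 clock genes and the list of 32 others were chosen with earlier results of these data known. All 10 are named. Of the others, those passing in either fit, the activators and the 4 with the next largest changes are named, and RORA, BHLHE41, TEF, HLF and THRA were added after their values were seen. Promoter and microRNA sequences came from RefSeq tables of GRCh38.p14. Alternatives covered the block, the dim limit, scaling, rows per gene, moderation, thresholds and single arrays left out. Figures were drawn with matplotlib 3.10.9.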

Additional observations from a re-analysis of the deposited data

How the results depend on the processing

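Without the replicate block, genes called numbered 553 rather than 1961, and clock genes called higher 2 rather than 6. With single arrays left out and no block, where the lone array of a group is assumed to vary like the other group, genes called ranged from 0 to 339, clock genes called higher from 0 to 3 and other clock pathway genes called higher from 0 to 1. Where limma called 0 genes, it counted 1663, 2432 and 3178 at an unadjusted p under 0.05 (leaving out the treated array of experiment 2, the control of experiment 1 and the control of experiment 2). At an adjusted p under 0.01, 540 genes, 4 clock genes and 1 other pathway gene were called. NR1D1, PER2, CRY1 and BHLHE40 kept their call in each of the 9 alternatives fitted with the block other than the fold threshold. PER1 kept it in 2 and CRY2 in 3 of those 9. Asking also for at least 1.5-fold left 5 clock genes, without CRY2, and left 1318 of all 14147 genes tested as higher. Clock genes called higher numbered 4 after median centring, quantile normalization or cyclic loess. Over all genes, 1268, 896 and 1246 were called higher in those settings, in that order, rather than 1428. Among the named clock pathway genes the sign turned only for ones that were not called. With single arrays left out, DBP ranged from -0.12 to 0.056, BMAL1 from -0.088 to 0.43, BMAL2 from -0.051 to 0.29, BHLHE41 from -0.035 to 0.16, TEF from -0.13 to 0.16 and HLF from -0.40 to 0.064. TEF also turned under quantile normalization (-0.063) and cyclic loess (-0.022). Apart from what fewer arrays or a stricter threshold imply, the cause was not tested. Array signal limits CLOCK, PER3 and NR1D2, whose 4 values each lay within the range of markers of other cell types.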
